A study of Mus musculus with 6 samples.

Results

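Peaks at gene 3′ ends were 676 of the 22973 H3K27ac peaks listed for untreated mouse embryonic stem cells (mESCs). They were chosen by position: an autosomal peak under 10000 bp wide that overlapped the 1 kb on either side of the transcript end of a protein-coding gene, taken from its longest transcript, and that stayed clear of the 1 kb on either side of every transcription start site (TSS) of a protein-coding or lincRNA transcript of a gene annotated with either type. The genes and transcripts were those of GENCODE release M21 on GRCm38 (mm10). H3K27ac, an acetylation mark on histone H3, was measured by ChIP-seq with the antibody ab4729 in E14 mESCs, named E14Tg2A with Rosa26-Cre and Oct4-IRES-Puro in the growth protocol, which were grown in N2B27 medium with LIF and inhibitors of MEK (PD0325901) and GSK3 (CT-99021), which all groups shared. Control cells received DMSO for 2 h, and the other cells received NVP-2, an inhibitor of the elongation kinase CDK9, at 100 nM for 120 min, or actinomycin D (ActD), which blocks RNA polymerases by binding DNA, for 120 min at a dose given as 800 nM in the treatment label and as 1 µg/ml in the protocol, which is about the same concentration. Each group had 2 replicates, and human HEK293 chromatin was added as a spike-in.

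The values below come from a single list of control peaks, pooled by the authors over both control replicates, in which every line is a chromosome with a first and a last base. It has no height, read count or replicate, so no value has a replicate error, no difference between replicates or treatments could be tested, and the treated libraries were not analysed here. Depth cannot be read from it. Intervals are 95% Wilson intervals for shares and 95% order-statistic intervals for medians, and cover counting error only, with each peak or gene taken as 1 count although neighbours can share sequence. A gene was called promoter-marked where any peak of the list came within 1 kb of the TSS of its longest transcript. By this measure 31 of 38 autosomal pluripotency and naive-state genes (81.6%) were promoter-marked against 9 of 52 regulators of other lineages (17.3%), beside 50.1% of all 20722 autosomal protein-coding genes. The other gene lists used below stood between 85.1 and 100%.

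H3K27ac is laid down by the acetyltransferases CBP and p300 and is best known from active promoters and from distal enhancers, which bind transcription factors and act on promoters at a distance. The 3′ end of a gene is where the nascent RNA is cleaved and polyadenylated and where RNA polymerase II terminates. Enhancers can lie there too: in mESCs, Fgf4 and Utf1 are textbook genes whose enhancers, bound by OCT4 and SOX2, sit in or next to the 3′ end of the gene. A peak at a 3′ end can also belong to a neighbouring gene or to a noncoding transcript that starts there, and the list does not say which.

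Among the narrowest peaks, 4 that hold no UTR sequence are shown whole, since they are small stretches of DNA under an H3K27ac peak. They are on the plus strand of GRCm38, with letters in capitals where a motif searched for below was found. The narrowest, 144 bp at chr11:103330406-103330549, lay outside coding genes with its midpoint 1020 bp downstream of the end of Arhgap27. The next, 149 bp at chr7:126467776-126467924, lay in an intron with its midpoint at -853 bp from the end of Sh2b1 (negative is upstream), a signalling adaptor gene, and its capitals mark the AP-1 motif TGANTCA. A peak of 201 bp at chr9:15316433-15316633 lay with its midpoint 387 bp downstream of the end of the centriole gene Cep295. A peak of 220 bp at chr7:25705230-25705449 lay with its midpoint 262 bp downstream of the end of Tgfb1, which encodes a secreted growth factor.
Arhgap27: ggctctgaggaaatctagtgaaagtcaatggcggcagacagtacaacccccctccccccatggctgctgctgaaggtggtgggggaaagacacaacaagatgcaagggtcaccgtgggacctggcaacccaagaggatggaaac
Sh2b1: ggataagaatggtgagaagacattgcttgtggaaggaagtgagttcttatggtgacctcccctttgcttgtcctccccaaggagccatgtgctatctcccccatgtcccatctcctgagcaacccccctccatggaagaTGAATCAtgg
Cep295: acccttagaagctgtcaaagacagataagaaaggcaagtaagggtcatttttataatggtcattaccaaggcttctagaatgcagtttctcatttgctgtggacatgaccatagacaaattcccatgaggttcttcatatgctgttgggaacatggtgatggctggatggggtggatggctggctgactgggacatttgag
Tgfb1: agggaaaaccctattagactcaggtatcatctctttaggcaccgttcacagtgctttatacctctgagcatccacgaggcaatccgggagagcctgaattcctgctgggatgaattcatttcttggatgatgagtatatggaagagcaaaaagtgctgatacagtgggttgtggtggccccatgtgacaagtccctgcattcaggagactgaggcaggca

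The peaks lay on both sides of the transcript end. Of 676 peaks, 337 contained the end itself (49.9%, 46.1 to 53.6%), 177 lay wholly downstream of it (26.2%, 23.0 to 29.6%) and 162 wholly upstream (24.0%, 20.9 to 27.3%). The rule's window reaches equally far to both sides, and these shares depend on it. With windows of 500 bp and 2 kb, 61.9% and 36.7% of the peaks contained the end. The midpoint was downstream of the end in 345 peaks (51.0%, 47.3 to 54.8%), and its median offset was 43.5 bp downstream, with quartiles of -924 and 1094 bp (negative is upstream). With peaks at TSSs of every transcript type removed, the downstream share was 54.9% (50.6 to 59.1%). The median width was 2263 bp (2030 to 2544 bp), in a range of 144 to 9936 bp, and the 676 peaks together covered 2125 kb. By annotation, the midpoint fell outside coding transcripts in 301 peaks (44.5%), in a 3′ untranslated region (UTR) in 177 (26.2%), in an intron in 135 (20.0%) and in coding sequence in 63 (9.32%). At least 1 base of 3′ UTR was inside 460 of them (68.0%). Peaks that contained the end were wider, with a median of 3470 bp against 1747 bp for the others, a difference that the geometry of a fixed end point builds in.

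**Figure D1:**
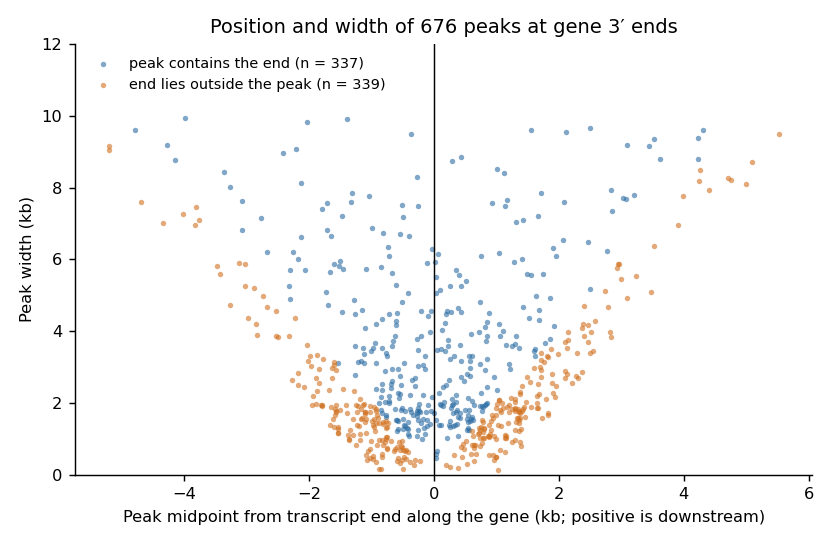
Each point is a peak at a gene 3′ end, with the distance of its midpoint from the transcript end (kb, positive downstream) on the x axis and its width (kb) on the y axis. Blue points contain the end (n = 337) and orange points do not (n = 339), and both spread to either side of the end. The median offset over all 676 peaks was 43.5 bp.

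Just inside the width limit were the peaks at Zmat3 (9936 bp) and Scrt2 (9917 bp), and just outside it those at Park7 (10142 bp) and Mgat3 (10215 bp). The last peaks to reach a transcript end had an edge 997 bp from the ends of Primpol and Aldh2, and the nearest to miss had edges 1004 bp from that of Syngr3 and 1007 bp from that of Fitm2. The members closest to a TSS were those at Lrrc25 (1051 bp) and Gm11563 (1053 bp), while the peaks at 4933428G20Rik and Dalrd3, each 983 bp from a TSS, were left out. Of 2043 autosomal peaks at a transcript end, 1297 came within 1 kb of a TSS and 70 of the other 746 were at least 10000 bp wide.

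The 676 peaks covered or neighboured the ends of 776 of 20722 autosomal protein-coding genes, or 3.74% (3.49 to 4.01%). Of the peaks, 598 were within 1 kb of a single gene end and 76 within 1 kb of 2, which were on opposite strands and thus convergent in 73. A peak on chromosome 18, 2756 bp wide at chr18:37839952-37842707, counted for 23 gene ends, since most genes of the gamma-protocadherin cluster (Pcdhga, Pcdhgb and Pcdhgc), which encode neuronal cell adhesion molecules, share their last exons there. It also reaches to 894 bp from the end of Diaph1, a formin gene. Without this peak the share of gene ends was 3.63%, and the share on chromosome 18, the highest of any autosome at 7.63%, was 3.13%. Shares on the other autosomes ran from 2.34% on chromosome 14 to 5.30% on chromosome 16.

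Over all genes, coverage by H3K27ac at the transcript end was within the range found around it, while for promoter-marked genes it was highest just downstream. With all peaks under 10000 bp that were away from a protein-coding or lincRNA TSS, and positions within 1 kb of a TSS left out, 2.06% of transcript ends lay inside a peak (393 of 19103, 1.87 to 2.27%). At 10 kb downstream the share was 2.04% (1.85 to 2.25%) and at 10 kb upstream, inside the gene, 1.60% (1.39 to 1.84%). From 20 kb upstream to 20 kb downstream it stayed between 1.60 and 2.36%. Ends of promoter-marked genes were covered more, with 2.83% at the end (2.51 to 3.18%), 3.49% at 2 kb downstream (3.14 to 3.89%) 2.56% at 10 kb downstream (2.26 to 2.89%) and 2.00% at 10 kb upstream (1.70 to 2.36%). For genes whose promoter was not marked, the share was 1.27% at the end (1.06 to 1.52%) and 1.24% at 2 kb downstream. It was 1.52% at 10 kb downstream and 1.04% at 10 kb upstream (0.80 to 1.36%). Without the gamma-protocadherin ends it was 1.09% at the end (0.90 to 1.32%). Near the end itself the share of the unmarked genes was 1.57% at 500 bp upstream, and 1.396% without the gamma-protocadherin ends.

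**Figure D2:**
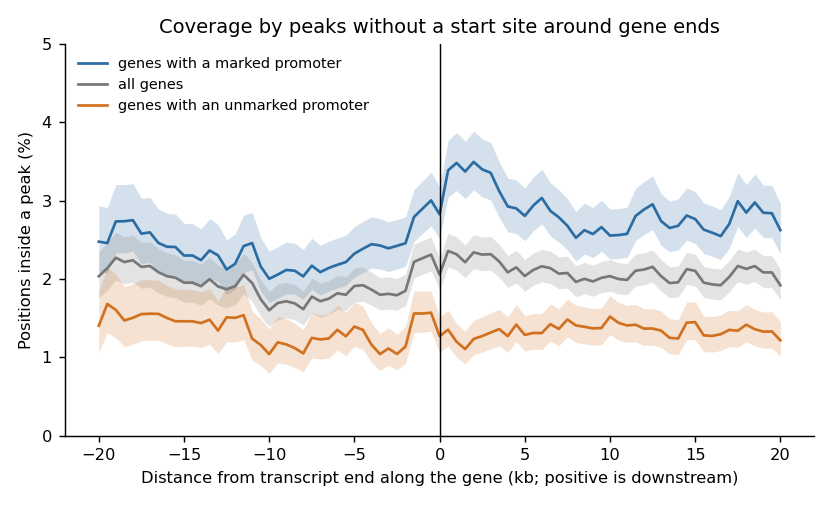
Percent of positions inside a peak (y axis) by distance from the transcript end along the gene (x axis, kb, positive downstream), for peaks under 10000 bp away from protein-coding and lincRNA TSSs, with 95% Wilson intervals as bands. Promoter-marked genes (blue) were covered more than unmarked genes (orange) at the end, 2.83% against 1.27%, and were highest at 2 kb downstream with 3.49%. Without the gamma-protocadherin ends the value of unmarked genes at the end was 1.09%.

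Genes with a peak at the 3′ end also had a peak at their promoter more often than genes at large. A contrast between marked and unmarked genes was not confined to gene ends. In the coverage above it was also present at 10 kb downstream (2.56% against 1.52%) and at 10 kb upstream (2.00% against 1.04%). Promoter marking was not computed for genes with other peaks, so it cannot be called particular to 3′-end peaks. The gene whose end was nearest was promoter-marked for 476 of 676 peaks, or 70.4% (66.9 to 73.7%), beside 50.1% of all 20722 genes (49.4 to 50.8%). Counted by gene, the end carried a peak in 539 of 10381 promoter-marked genes (5.19%, 4.78 to 5.64%) and in 237 of 10341 unmarked genes (2.29%, 2.02 to 2.60%). Without the gamma-protocadherin peak the unmarked share was 2.13%, and the shares by gene length below include its ends. Gene length may bear on both measures, which was not tested, so the shares are also given by quartile of length. Among the shortest quartile of genes (57 to 6425 bp) 1.81% had a 3′-end peak, against 4.54% in the next quartile (6429 to 16919 bp), 4.83% in the next (16921 to 43986 bp) and 3.80% among the longest (44015 bp and more). Within each quartile the share was higher for marked than for unmarked genes, at 2.64% against 1.39%, 6.79% against 2.35%, 6.04% against 3.02% and 4.43% against 2.93% in order of length. The same order held in bins of distance from the end to the nearest TSS above 2 kb, such as 8.03% (6.96 to 9.25%) against 3.66% (2.92 to 4.57%) at 5 to 10 kb. At 1 to 2 kb it did not, with 8 of 835 marked and 12 of 1197 unmarked genes. Transcription of these genes was not analysed here.

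**Figure D3:**
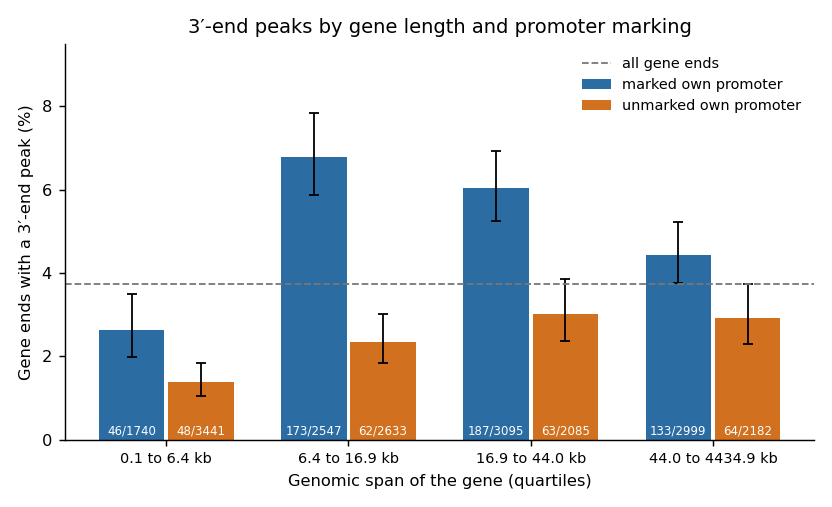
Percent of gene ends with a 3′-end peak (y axis) by quartile of genomic span (x axis), for genes with a marked (blue) or unmarked (orange) promoter, with 95% Wilson intervals and counts at the foot of each bar. Marked genes were higher in each quartile, by most in the second (6.79% against 2.35%), and the dashed line is the share over all gene ends, 3.74%.

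The nearest TSS counted by the rule was between 1051 and 229005 bp away, with a median of 8328 bp (7818 to 9233 bp). The nearest TSS belonged to the same gene in 366 peaks (54.1%, 50.4 to 57.9%). In 289 it was another gene's, lying downstream, of which 169 were on the same strand and 120 on the opposite strand. That nearest TSS was itself within 1 kb of a peak in 376 of 676 cases (55.6%, 51.9 to 59.3%), beside 46.5% of all 59230 such TSSs.

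Start sites of transcripts that the rule did not consider were frequent. A TSS of a transcript outside the rule lay within 1 kb of 157 peaks (23.2%, 20.2 to 26.6%), compared with 14.2% (13.3 to 15.2%) of the other 5018 peaks in coding genes and 8.57% (7.87 to 9.32%) of the 5708 peaks outside them. The 3′-end peaks were also wider, with a median of 2263 bp against 1915 bp and 1961 bp for these classes. Whether width bears on the difference was not tested. The type was retained intron in 58, processed transcript in 35, antisense in 31, miRNA in 9 and snoRNA in 5. In 1 it was a lincRNA transcript of a gene annotated with another type. Whether these starts carry the acetylation was not tested. In the RefSeq promoter table, whose chromosomes hold 661 of the 676 peaks, a TSS lay inside 22 peaks (3.33%, 2.21 to 4.99%). This share was not computed for other peak classes, so it cannot be called high or low. The most CpG-rich of their promoters was that of Snhg8, a noncoding host gene of a small nucleolar RNA. It lies inside the 4001 bp peak at the end of Prss12 (chr3:123505706-123509706), a serine protease gene whose own promoter was not marked. The peak at the end of Fam69b likewise holds the promoter of Snhg7. The Snhg8 promoter (RefSeq, GRCm38.p6, chr3:123508287-123508586, minus strand) had a GC content of 62% and a CpG observed/expected ratio of 1.04, and is shown 5′ to 3′ with the 50 bases from the TSS onward in capitals.
Snhg8 promoter: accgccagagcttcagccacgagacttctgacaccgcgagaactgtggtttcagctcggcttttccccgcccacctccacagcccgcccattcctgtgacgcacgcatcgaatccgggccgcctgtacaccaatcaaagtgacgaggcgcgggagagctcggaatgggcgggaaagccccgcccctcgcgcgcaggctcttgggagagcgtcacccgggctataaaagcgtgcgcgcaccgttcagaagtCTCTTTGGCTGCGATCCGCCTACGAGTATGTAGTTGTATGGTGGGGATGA

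In CpG ratio the 3′-end peaks were close to other distal peaks and far from promoter peaks, while their GC content lay between both. Median GC content was 50.2% (49.6 to 50.6%), between 53.9% for 9520 peaks at a TSS and 47.6% and 47.0% for the other peaks inside and outside coding genes. The CpG observed/expected ratio, which compares the CpG count with that from the C and G content and is high in CpG islands, had a median of 0.241 (0.232 to 0.250), against 0.6002 at a TSS, 0.219 in coding genes and 0.212 outside them. A GC content above 50% with a ratio above 0.6 was found in 32 peaks (4.73%, 3.37 to 6.61%), against 45.4% at a TSS, 1.38% in coding genes and 2.42% outside. Repeat-masked sequence made up a median of 17.3% of a 3′-end peak, 11.8% of a TSS peak, 19.04% of other peaks in genes and 25.02% of those outside. The DNA around the transcript end differed as well, although it overlaps the peaks in part. Over 2 kb centred on gene ends more than 2 kb from a TSS, median GC was 49.0% at the 755 ends with such a peak and 44.1% at the 16316 without, and the ratio was 0.248 against 0.200. Ends without a peak had 44.9% GC where the promoter was marked and 43.1% where it was not, both below the 48.4% at the lower bound of the ends with a peak. Peaks with their midpoint in coding sequence stood highest, with a median GC of 56.2% and a ratio of 0.489.

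**Figure D4:**
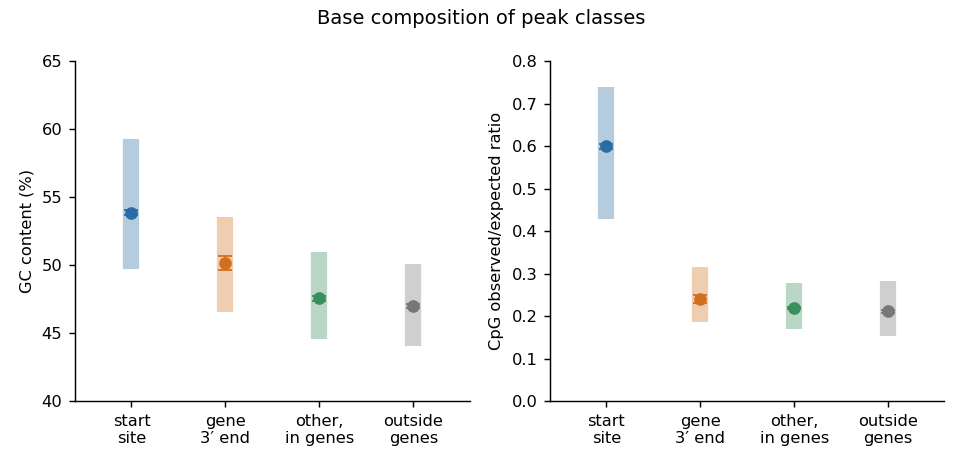
Median GC content (left, %, axis from 40) and CpG observed/expected ratio (right) of 4 classes of autosomal peaks under 10000 bp, with quartiles as bars and 95% order-statistic intervals as whiskers. The 3′-end peaks had a median of 50.2% GC, between TSS peaks (53.9%) and other peaks, and a CpG ratio of 0.241, near the other distal peaks and far below TSS peaks (0.6002).

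The CpG-rich peaks were short, with a median width of 1006.5 bp against 2437 bp for the other 644, and the own promoter was marked in 46.9% of them against 71.6%. The highest CpG ratios were those at Otud7a (1.17, GC 74.9%), Nrg2 (1.06, 69.8%) and Cacng8 (1.02, 74.1%). The Otud7a peak at chr7:63757876-63758806 is 91.6% coding sequence of a deubiquitinase gene. The Cacng8 peak at chr7:3414928-3415426, of a gene for an auxiliary subunit of AMPA receptors, is coding sequence throughout. Nrg2 encodes a neuregulin, and 72.6% of its peak is coding. The lowest GC contents were those of Olfr147, an olfactory receptor gene (37.5%), Zfp2 (38.9%) and Cdk17 (39.3%).

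Motifs of factors known from mESC enhancers were counted in the central 300 bp of each peak, on both strands, with exact letters. The octamer ATTTGCAT, the site of POU factors such as OCT4, was found in 6 of 676 peaks (0.888%, 0.407 to 1.92%), beside 1.74% of all 20922 autosomal peaks under 10000 bp, 0.966% of TSS peaks and 2.49% of the other distal peaks. The SOX letters ACAATGG and AACAAAG were found in 3.70% and 5.92%, beside 4.18% and 6.92% of all. The ESRRB element TCAAGGTCA was in 14 (2.07%, 1.24 to 3.45%), beside 1.46% of all, 0.840% of TSS peaks and 1.97% of other distal peaks. For the KLF letters CCACACCC and CCCCACCC the shares were 4.44% and 9.91%, beside 4.10% and 9.005% of all. The STAT element TTCCNGGAA was found in 8 peaks (1.18%) beside 1.14% of all. The CTCF letters AGGGGGC, at 7.10%, lay between TSS peaks (9.84%) and other distal peaks (4.36%), as did the ETS letters CCGGAAG, at 5.33% against 10.1% and 3.09%. NRF1 (GCGCATGCG) was in a single peak (0.148%), against 1.39% of TSS peaks and 0.242% of other distal peaks. TEAD (GGAATG), AP-1 (TGANTCA) and E-box (CACGTG) letters stood at 14.6%, 7.99% and 5.62%, beside 15.8%, 7.63% and 5.77% of all. For each motif the interval of the 3′-end peaks held the share over all peaks, which mix TSS and distal peaks. The share of the other distal peaks lay above that interval for the octamer, for both SOX motifs (5.91% and 9.22%) and for TEAD (19.02%), and below it for CTCF and ETS. A match describes letters only and not a bound site.

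Some matches lay in peaks at the ends of genes named below, found over the whole peak. They are printed on the plus strand of GRCm38 with 10 bases on either side and the match in capitals, to show what such matches look like at distal sites. The octamer lay 872 bp from the end of Lrp5 (chr19:3585690-3585717) and 2629 bp from that of Leo1 (chr9:75463793-75463820). The ESRRB element lay 2525 bp from the end of Leo1 (chr9:75463897-75463925) and 1591 bp from that of Rps7 (chr12:28629253-28629281). The KLF letters lay 1921 bp from that of Ctnnb1 (chr9:120962418-120962445) and 1529 bp from that of Dppa2 (chr16:48321242-48321269).
Lrp5 octamer: agagtaagctATTTGCATcaccccagta
Leo1 octamer: tccagttctcATTTGCATgccacggggc
Leo1 ESRRB element: ggggacatggTGACCTTGAgactgacagg
Rps7 ESRRB element: aactttttaaTGACCTTGAactgctgacc
Ctnnb1 KLF letters: acaatagaaaCCACACCCtgtgtctgtt
Dppa2 KLF letters: tcctccctccCCCCACCCgctctaaatc

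The 3′-end peaks were spread thinly over gene lists chosen for their role in mESCs or in transcription. Of 38 pluripotency and naive-state genes, 2 had one (5.26%, 1.46 to 17.3%), as did 4 of 47 genes of LIF, FGF, Wnt and Nodal or BMP signalling (8.51%, 3.36 to 19.9%), 3 of 56 genes for chromatin and acetylation enzymes (5.36%, 1.84 to 14.6%) and 3 of 33 for transcription elongation (9.09%, 3.14 to 23.6%). Cell cycle genes counted 2 of 35 (5.71%), ribosomal protein genes 4 of 72 (5.56%), glycolysis and one-carbon genes 1 of 26 (3.85%) and lineage regulators of other cell types 2 of 52 (3.85%). None of 14 formative and primed genes (up to 21.5%) and none of 35 genes for pre-mRNA 3′ end processing and termination (up to 9.89%) had one. Each interval held the 3.74% of all genes. Differences between the lists were not tested. With a window of 500 bp around the end, 2.13% of the signalling genes had a peak, beside 3.00% of all genes. With a window of 2 kb, 5.71% of the 3′ end processing genes had a peak, beside 5.10% of all genes.

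**Figure D5:**
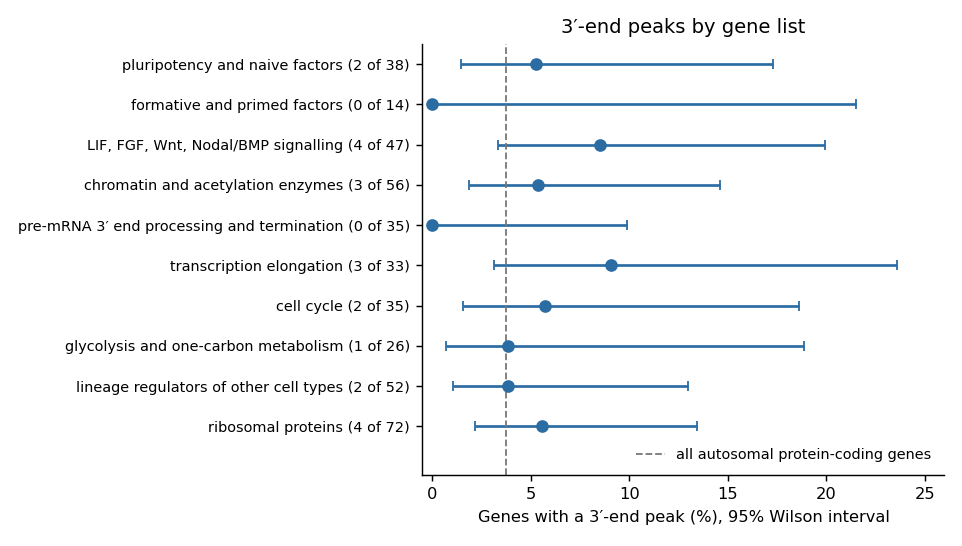
Percent of each gene list with a 3′-end peak (x axis) with 95% Wilson intervals, and the counts beside each list name. Every interval spans the dashed line at 3.74%, the share over all autosomal protein-coding genes.

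Both pluripotency genes were promoter-marked. At Dppa2, a chromatin-binding factor of early embryos and mESCs, the peak of 1992 bp (chr16:48319574-48321565) contained the transcript end, with 92.5% of its bases beyond the gene, and the nearest TSS, that of Dppa2, was 9097 bp away. At Trim8, a ubiquitin ligase gene, a peak of 2703 bp (chr19:46517800-46520502) began 952 bp beyond the end and lay wholly outside coding genes.

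The 4 signalling genes differed in where the peak sat. In Lif, the cytokine that sustains mESC self-renewal, a peak of 817 bp (chr11:4270857-4271673) lay entirely in the 3′ UTR, 841 bp before the end, with 57.9% GC, and the Lif promoter itself was not marked. In Lrp5, a Wnt co-receptor gene, a peak of 1837 bp (chr19:3585494-3587330) was 94.7% intron. Downstream of Ctnnb1, which encodes the Wnt effector β-catenin, a peak of 2108 bp (chr9:120961245-120963352) began 738 bp past the end. At Grb2, an adaptor that links receptors to RAS, a peak of 7352 bp (chr11:115637524-115644875) contained the end, and 88.7% of it lay beyond the gene. The promoters of the latter 3 genes were marked.

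Among chromatin genes, the peaks at the acetyltransferase genes Kat7 (1634 bp) and Kat6b (5289 bp) and at the deacetylase gene Hdac2 (2936 bp) each contained the transcript end. The Kat7 peak was 66.2% 3′ UTR and the Kat6b peak 30.9% coding sequence, 30.4% 3′ UTR and 38.7% beyond the gene, while 58.3% of the Hdac2 peak was intron. Of the elongation genes, Leo1, a subunit of the PAF1 complex, had a peak of 6712 bp over its end that also held the TSS of Gm7972. Aff1, a scaffold of the super elongation complex, had one of 2986 bp that began 104 bp beyond the end. Setd2, whose product methylates histone H3 at H3K36, had one of 2556 bp that stopped 565 bp short of the end and was 86.2% intron. The TSS of a retained-intron transcript of Setd2 lay inside it. All 6 had marked promoters.

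The cell cycle kinase gene Cdk1 had a peak of 3322 bp over its end and Mdm2, the ubiquitin ligase gene that restrains p53, one of 5897 bp that stopped 164 bp short of it. The TSS of a retained-intron transcript of Mdm2 lay inside the Mdm2 peak. Slc2a1, which encodes the glucose transporter GLUT1, had a peak of 7110 bp over its end, 26980 bp from its own TSS. The TSS of the antisense transcript Gm12868 lay inside the Slc2a1 peak. Cdk1, Mdm2 and Slc2a1 were promoter-marked. Gata3 and Spi1, regulators of T cells and of myeloid cells, were not, yet their ends lay inside peaks of 3608 and 5815 bp. The Gata3 peak was 35.9% 3′ UTR and 61.4% beyond the gene, and the Spi1 peak was 82.3% intron, counting that of any coding gene, and lay 2396 bp from the TSS of Mybpc3. The 4 ribosomal protein genes Rps3, Rps7, Rps24 and Rps28 were promoter-marked, with peaks of 3599, 1883, 5558 and 3159 bp. The Rps28 peak had 58.7% of its bases in coding sequence, counting that of neighbouring genes, and the nearest TSS of the rule was that of Kank3, 2111 bp away, while the TSS of a processed transcript of Kank3 lay inside the peak.

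The peaks over the ends of Fgf4 and Utf1 did not fall into this set by its rule. Positions of the enhancers themselves were not used. The end of Fgf4 (position 144862890 on chromosome 7) lay in a peak of 22718 bp (chr7:144845806-144868523) that ran from the promoter past the end of the gene and thus exceeded the width limit. The end of Utf1 lay in a peak of 3638 bp (chr7:139943830-139947467) that began 41 bp from the Utf1 TSS.

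Hairpins of miRNAs lay inside 6 of the peaks, 10 of the 919 autosomal hairpins in the RefSeq table. Hairpins in other peaks were not counted, so 6 cannot be called many or few. The richest was the 6659 bp peak at the end of 2010111I01Rik (chr13:63299155-63305813), with Mir23b, Mir27b, Mir24-1 and Mir3074-1. The promoter of 2010111I01Rik itself was not marked. A 2728 bp peak downstream of Phb2, which encodes a prohibitin, and of the convergent Ptpn6 gene (chr6:124717302-124720029) held Mir200c and Mir141, members of the miR-200 family known to keep cells epithelial by repressing Zeb1 and Zeb2. The other 4 were Mir3063 in the peak of 8778 bp at Igf2bp1, Mir7011 at Sema4a, Mir5125 at Srrm2 and miR-935 at Cacng8. Mature sequences from both clusters are given 5′ to 3′ with the seed, bases 2 to 8, in capitals. No RNA was measured.
miR-27b-3p: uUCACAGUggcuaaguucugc
miR-24-3p: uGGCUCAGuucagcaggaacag
miR-200c-3p: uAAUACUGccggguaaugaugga
miR-141-3p: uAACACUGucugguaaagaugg

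The widest peaks were those at Zmat3, a p53 target gene (9936 bp), and Scrt2, a neural transcription factor gene (9917 bp), and both contained the transcript end. In Zmat3 67.4% of the peak was 3′ UTR. Farthest from a TSS of a protein-coding or lincRNA transcript were the peaks at Arl15 (1389 bp wide, 229005 bp away), Dync2h1 (1276 bp, 189247 bp) and Morc1 (5708 bp, 140575 bp). TSSs of other transcript types were nearer, at 6065, 28348 and 31072 bp. Arl15 is a small GTPase gene, Dync2h1 a ciliary dynein gene and Morc1 a gene needed in male germ cells. The third-narrowest peak, 159 bp, lay wholly in the 3′ UTR of Ifngr2, an interferon gamma receptor gene with an unmarked promoter. The peaks that came earliest in the list, whose order is not explained in the sources used here, were those at Apod (9160 bp), Rimbp3 (8791 bp) and Ncstn (7792 bp).

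The poly(A) signal AATAAA, which directs cleavage of the RNA, was present in the last 60 bases of 492 of the 776 ends with a 3′-end peak (63.4%, 59.95 to 66.7%), beside 58.5% (57.9 to 59.2%) of all 20722 ends. Among the 393 ends that lay inside a peak the share was 62.3% (57.5 to 67.0%), whose interval overlaps that of all ends. The gamma-protocadherin ends that share their last exons were each counted, and the shares without them were not computed.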

How the data were processed

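H3K27ac was measured by ChIP-seq in 6 mESC samples, 2 per treatment. According to the methods, the authors trimmed reads with Cutadapt, aligned them with bwa meme to mm10 and the human genome together, removed duplicates (Picard 2.9.1) and poorly mapped reads (SAMtools 1.4), called peaks with LanceOtron, merged those within 2 kb, and filtered them by input-subtracted height and distance to ATAC-seq summits. The deposited file pools both control replicates and gives positions in base pairs with no score. A gene end without a peak may therefore have failed a filter.

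Peaks were compared with GENCODE M21 (GRCm38), an earlier release than the study's, and the GRCm38.p6 sequence. An overlap of at least 1 bp counted. Sequences and miRNAs came from RefSeq. The promoter table has no chromosome 18. The rule functions were tested on simulated data, and 792 of 792 simulated peaks were put in the class they were made for. The genes named were list genes with a peak, the 3 most extreme peaks by width, GC, CpG ratio, TSS distance, list order and number of ends, those next to each limit, and Fgf4 and Utf1. Some items that this rule names are not reported here. Any other gene, such as those at miRNAs or RefSeq TSSs, was picked once its values were known. The members and lists were chosen with earlier results of these data known. No test was run, since peaks of 1 list are not replicates. The tools were samtools 1.23.1 and pysam 0.24.0 for sequence, scipy 1.17.1 for intervals, matplotlib 3.10.9 for plots, and numpy 2.4.6 and pandas 2.3.3 under Python 3.11.15.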

Additional observations from a re-analysis of the deposited data

How the results depend on the processing

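Of 71 values recomputed for the 7 main results, 53 stayed inside the interval of the reported value (counts: within 1.5 times). With end windows of 500 bp and 2 kb the share of gene ends with a peak was 3.00% and 5.10%, and the share of peaks that contained the end 61.9% and 36.7%. With the TSSs of every transcript type removed, the median CpG ratio was 0.231, the share of gene ends 2.87% and the share with a downstream midpoint 54.9% (50.6 to 59.1%). With peaks under 5000 bp, median GC was 50.7%, the share of gene ends 2.99% and the share containing the end 43.3%. Without a width limit the share of gene ends was 4.11%. With peaks of at least 1 kb, median GC was 49.6%, the share of gene ends 3.31% and the share containing the end 56.3%. With the midpoint in the window, 337 peaks were left, 1.85% of gene ends had one, median GC was 50.7% and 67.1% contained the end. These moves follow from which peaks each window or limit admits. The share of peaks with a marked own promoter ranged from 68.2 to 72.5% over the alternatives and stayed inside its interval in each.

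Of 30 gene list values 29 stayed inside their wide intervals, and signalling genes, with 2.13% under the 500 bp end window, did not. The 500 bp window also left pluripotency genes at 2.63%, beside 3.00% of all genes, and the 2 kb window gave 10.7% of chromatin genes, 7.69% of glycolysis and one-carbon genes and 5.71% of the 3′ end processing genes, of which none had a peak with the 1 kb window, beside 5.10% of all genes. Motif shares depend on the length searched: they ran from 0.148 to 14.6% in the central 300 bp, from 0.444 to 28.7% in the central 600 bp and from 1.48 to 69.5% in the whole peak. The values without the gamma-protocadherin peak were added after the data were seen. No paired analysis was possible because the list pools both control replicates, and for the same reason no replicate could be left out. Depth and peak height cannot be read from the list, so how strongly each end was acetylated was not analysed here.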
